A study of Mus musculus with 6 samples.

Results

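RNA helicases of the DEAD and DEAH box families were followed in fully grown mouse oocytes that lack NAT10 and in wild-type oocytes. The members were the rows of the deposited gene table whose symbol is Ddx or Dhx followed by a number, with pseudogene rows and Ddx4 left out. This gave 53 of 55291 rows, 36 with a Ddx name and 17 with a Dhx name. One of them, Dhx58os, is an antisense RNA that the symbol rule caught. The symbols did not depend on any measured value. The tested oocytes came from females carrying Gdf9-cre and a conditional Nat10 allele (Nat10 cKO, titled gKO in the sample names), and the controls came from females labelled WT. Gdf9-cre acts in oocytes from the primordial follicle stage on, so the follicle cells around them keep the gene. All females had received PMSG, a gonadotropin that stimulates follicle growth, up to 48 h before collection, with the start of the window given as 32 h in the design text and 36 h in the protocol. Each library was made by Smart-seq2 from polyadenylated RNA of a pool of 10 oocytes, with 3 libraries per group. The sources used here do not say whether the WT females carried the floxed allele, how old the females were or whether pools came from separate females. The p-values therefore measure the spread between these pools, which may be technical.

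DEAD and DEAH box proteins use ATP to separate short RNA duplexes or to remodel RNA bound to protein. They are named after the 4 amino acids of a conserved ATPase motif. Members act at almost every step in the life of an RNA: rRNA processing and ribosome assembly, splicing, export through the nuclear pore, translation, storage, decay and the sensing of foreign RNA. A fully grown oocyte makes little new RNA and lives on stored maternal transcripts, so the helicases that pack, mask and release mRNA, such as DDX6, are of interest there. NAT10 acetylates cytidines in RNA, and the title of the series asks how its loss bears on translation during meiotic maturation.

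The motif that names the families could be read from the coding sequences of the reference annotation (GENCODE M21, GRCm38). The stretches below are coding-strand sequence with 9 bases on each side, and the capitals mark the 4 codons of the DEAD or DEAH box. They are shown to let the motif be compared across members whose levels are described further on.
Ddx20, chr3:105683445-105683474, minus strand: tttattcttGATGAAGCAGATaagctttta
Ddx1, chr12:13230370-13231462, minus strand, split by an intron: ctggtcctgGATGAAGCAGATgggcttctc
Ddx41, chr13:55533047-55533076, minus strand: ctagccctgGATGAAGCTGACcgcatgatt
Ddx6, chr9:44626468-44627652, plus strand, split by an intron: atagtgctaGATGAGGCAGATaaattgttg
Ddx47, chr6:135015890-135015919, plus strand: ttggtcatgGATGAAGCAGACcggatactg
Ddx19a, chr8:110979077-110979106, minus strand: tttgttctgGACGAGGCTGATgtgatgata
Ddx19b, chr8:111011326-111011355, minus strand: tttgttctgGACGAGGCTGATgtgatgata
Dhx33, chr11:70999799-70999828, minus strand: gtcattttgGACGAGGCCCATgagcggact
Dhx40, chr11:86800978-86801007, minus strand: attattttgGATGAAGCCCATgaaagaact
The stretches of Ddx19a and Ddx19b, neighbours on chromosome 8, were identical. Names and codons did not always match. Of the 36 Ddx genes, 27 held DEAD codons, 8 held neither box and 1, Ddx11, held DEAH codons. Among the 16 protein-coding Dhx genes, 8 held DEAH codons and 7 held neither. Dhx29 held DEAD codons, but near the end of its coding sequence, at base 3352 of 4095. Ddx58 and Ddx60 were among those with neither box.

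The libraries held 74.1, 47.4 and 71.0 M recovered reads in Nat10 cKO replicates 1, 2 and 3, and 33.5, 34.1 and 65.5 M in WT replicates 1, 2 and 3, so the shallowest pools were WT. Nat10 itself had 5.72, 5.97 and 6.32 CPM (TMM-scaled counts per M reads) in Nat10 cKO, against 42.1, 50.1 and 39.3 CPM in WT. The groups did not overlap, and in limma's test Nat10 fell by 2.67 on the log2(CPM + 1) scale (SE 0.129, adjusted p = 4.29e-08). All 9 oocyte markers examined were present, with a summed level of 24350 to 29325 CPM in Nat10 cKO and 19410 to 20004 CPM in WT. With TMM scaling, 7 of them were called higher and 1 lower in Nat10 cKO. The 13 granulosa cell markers summed to 367 to 413 CPM in Nat10 cKO and 392 to 445 CPM in WT, and most of that was Serpine2. Of the 11 granulosa markers tested, 2 were called higher (Inha and Gatm) and 2 lower (Inhba and Cyp19a1). Gatm had 22, 10 and 18 reads in Nat10 cKO and 0 in each WT library. It thus passed the filter on low counts only through the Nat10 cKO libraries, and its call carries no weight. Inhba was low as well, at 0.615, 0.504 and 0.664 CPM in Nat10 cKO, against 1.67, 1.15 and 1.94 CPM in WT. The 10 markers of theca, stroma and endothelium summed to 126 to 145 CPM in Nat10 cKO and 131 to 139 CPM in WT, and of 7 tested, Pecam1 was called higher and Myh11 and Cyp17a1 lower. Cyp17a1 had only 6, 2 and 10 reads in Nat10 cKO, against 10, 16 and 16 in WT. It passed the filter through the WT libraries, so its call carries no weight. The part of other cells in the results was not tested. A level in pooled oocytes cannot separate fewer cells of a type from less RNA per cell. In WT replicate 1, 2 genes above 50 CPM stood more than 3-fold over every other library, and one of them was Dhx36, described below. No other library had such a gene.

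With TMM scaling, more helicase genes rose than fell in Nat10 cKO oocytes, and by small amounts. CPM values are relative to the other reads of a library, so a rise or fall here is not a change in amount per oocyte. The balance depended on the scale. The difference was positive for 33 tested members and negative for 18 with TMM scaling. On the deposited values it was positive for 47 and negative for 4. With the deposited factors applied to the share of reads of each gene, it was positive for 23 and negative for 28. Both silent rows, Ddx3y (a Y-linked gene) and Dhx58os, had no read in any library. The other 51 members had reads in all 6 libraries, passed the filter on low counts and were tested, and 41 members averaged at least 10 CPM. In limma's test across 18353 genes with Benjamini-Hochberg adjustment, 18 members rose in Nat10 cKO (35.3% of those tested), against 17.4% of all tested genes. In the other direction, 6 members fell (11.8%), against 17.6% of all tested genes. The remaining 27 members did not pass. Among the members, 20 had all 3 Nat10 cKO libraries above all 3 WT libraries, where 24.1% of all tested genes did, and 8 had them below, where 24.2% did. The median difference of members was 0.14 on the log2(CPM + 1) scale, beside 0.00 for all tested genes, and the median size of the difference was 0.29 beside 0.24.

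Most changes were modest. On the log2(CPM + 1) scale, where low genes change less than in fold, the 18 rises ran from 0.32 to 0.81. No member rose by 1 or more on that scale, where 2.5% of all tested genes did, while edgeR gave 2.19 for Ddx43, a gene with few reads. Ddx60 was the only member called lower by at least 1 on the log2(CPM + 1) scale, where 1.98% of all tested genes were. The edgeR quasi-likelihood test on the same reads called the same 24 members, beside 16.6% of all genes higher and 17.2% lower. Ddx genes rose in 15 of 35 tested cases (42.9%) and Dhx genes in 3 of 16 (18.8%), beside the 17.4% of all tested genes, so the Dhx share was near that of all genes. In the other direction 4 Ddx genes (11.4%) and 2 Dhx genes (12.5%) fell, beside 17.6%. By codons, 11 of 27 tested genes with DEAD codons rose (40.7%), as did 2 of 9 with DEAH codons (22.2%) and 5 of 15 with neither (33.3%). The 27 included Dhx29, whose DEAD codons lie near the end of its coding sequence. The differences between these families were not tested. These counts rest on the scale. On the deposited values as they stand (deposited scaling), 1 member was called higher, Ddx43, beside 6.58% of all tested genes, and 1 lower, Ddx60, beside 1.39%. When the factors were instead applied to the share of reads of each gene (per-read shares), Ddx43 was again called higher, beside 5.6% of all genes, and Ddx60 and Ddx58 were called lower, beside 16.5%. Ddx43 passed the filter on low counts through the Nat10 cKO libraries, where it is high, so its calls are not independent of that filter.

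**Figure D1:**
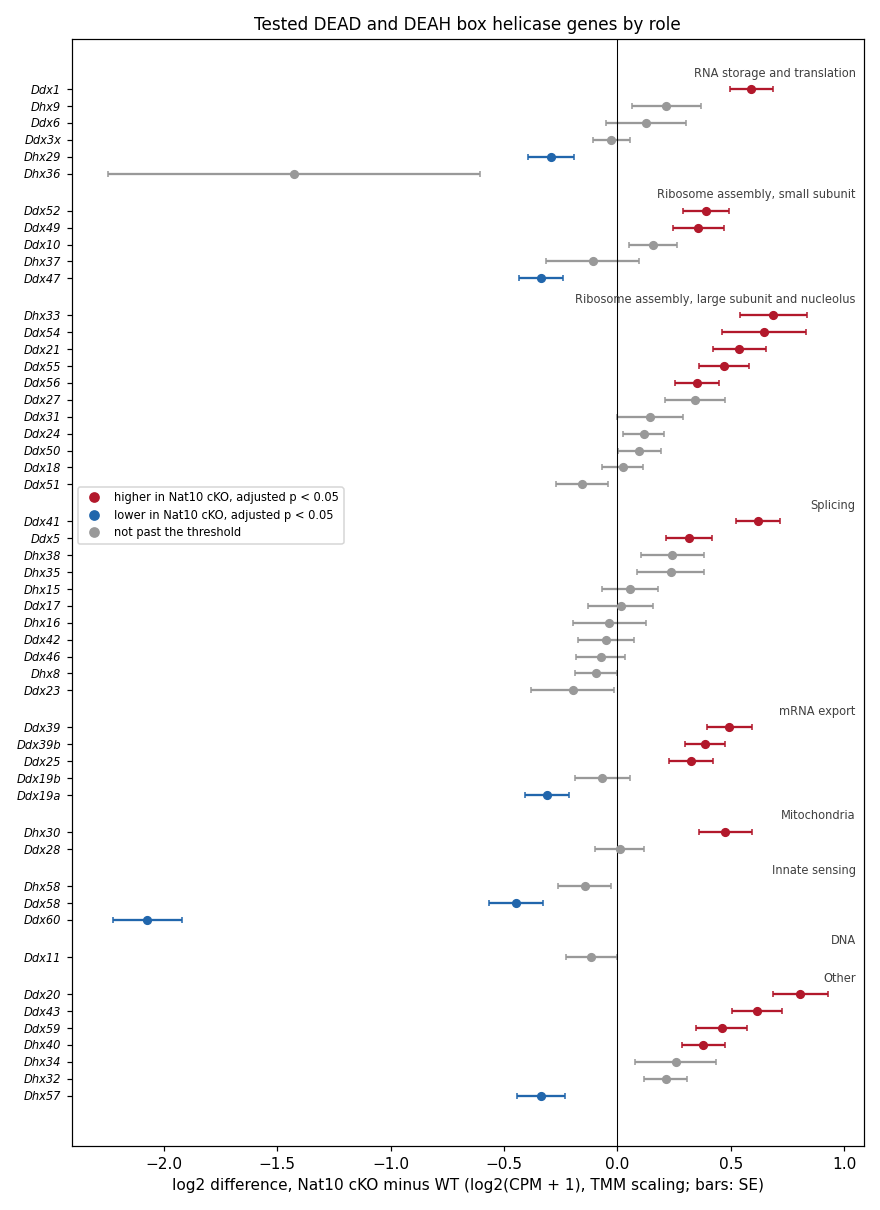
Difference of each tested helicase gene, Nat10 cKO minus WT, on the log2(CPM + 1) scale with TMM scaling; bars are the standard error from limma with 3 libraries per group. Members are grouped by role, with the 18 called higher in red, the 6 called lower in blue and the 27 that did not pass in grey; Ddx60 at -2.07 and Dhx36 at -1.43 lie farthest to the left, the second with an SE of 0.82.

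The plot of members by role shows the rises spread over ribosome assembly, export, splicing and the mixed group, and the strongest fall among the RNA sensors.

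The 3 members known for innate sensing of RNA held the largest called change. Ddx60 (chr8:61928087-62038244, plus strand, GRCm38), an interferon-induced helicase reported to assist RIG-I, had 2.38, 1.91 and 2.60 CPM in Nat10 cKO, against 14.0, 12.4 and 12.2 CPM in WT. Every Nat10 cKO library was far below every WT library, and the WT mean was 5.59-fold of the Nat10 cKO mean. Ddx60 fell by 2.07 on the log2(CPM + 1) scale (SE 0.151, adjusted p = 2.74e-06), where edgeR gave a log2 difference of -2.47. Ddx60 kept its call without any one library and under both other scalings. Ddx58 (chr4:40203773-40239828, minus strand), which encodes RIG-I, the sensor of RNA ends typical of viruses, had 28.6, 27.0 and 32.5 CPM in Nat10 cKO, against 43.6, 35.4 and 42.4 CPM in WT. The groups were apart, with WT replicate 2 closest to Nat10 cKO. Ddx58 fell by 0.45 (SE 0.118, adjusted p = 0.0105). Leaving out WT replicate 3 or Nat10 cKO replicate 1 ended this call (adjusted p = 0.0611 and 0.052).

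Dhx58, which encodes LGP2, a relative of RIG-I that modulates its signal, was near the floor of detection. It had 0.16, 0.336 and 0.083 CPM in Nat10 cKO, against 0.185, 0.344 and 0.42 CPM in WT. These values overlapped, and the difference was -0.14 (adjusted p = 0.365). The 10 blood and immune cell markers together reached 34.9 to 35.6 CPM in Nat10 cKO and 44.0 to 50.2 CPM in WT. Most of that sum was 1 gene, C1qb, at 32.0, 31.6 and 32.6 CPM in Nat10 cKO and 43.6, 47.0 and 41.3 CPM in WT, which was called lower in Nat10 cKO (-0.44, adjusted p = 0.00489). Ptprc, which marks nearly all white blood cells, was between 0 and 0.124 CPM in all libraries, and globin genes were below 0.35 CPM. Their part in the fall of Ddx60 and Ddx58 was not tested.

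The promoters of both genes are shown because they shared a short motif. The windows come from RefSeq (GRCm38.p6) and run from 250 bases before to 50 bases after the annotated start. The motif searched was GAAA followed by any 2 bases and a second GAAA, on both strands, which is the core of the interferon-stimulated response element. Capitals mark the matches, which do not overlap one another.
Ddx60, chr8:61927837-61928136, plus strand: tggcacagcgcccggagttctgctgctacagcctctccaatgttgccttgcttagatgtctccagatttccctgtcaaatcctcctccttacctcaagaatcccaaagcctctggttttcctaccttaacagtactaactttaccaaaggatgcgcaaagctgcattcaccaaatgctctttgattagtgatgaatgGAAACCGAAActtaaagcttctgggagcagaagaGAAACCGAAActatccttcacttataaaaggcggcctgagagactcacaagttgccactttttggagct
Ddx58, chr4:40239776-40240075, minus strand: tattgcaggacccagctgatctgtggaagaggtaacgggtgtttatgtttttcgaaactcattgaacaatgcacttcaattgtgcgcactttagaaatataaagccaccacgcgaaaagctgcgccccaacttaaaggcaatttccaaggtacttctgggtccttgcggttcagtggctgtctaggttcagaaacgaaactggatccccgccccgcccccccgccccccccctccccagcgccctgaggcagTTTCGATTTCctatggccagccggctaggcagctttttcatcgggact
Ddx60 held 2 matches in the same orientation, and Ddx58 held 1 on the opposite strand. A promoter window was at hand for 46 of the 53 members, and 3 of these held the motif: Ddx60, Ddx58 and Ddx49. Across all 32851 windows of the table, 3.44% held at least 1 match and 0.225% held at least 2. These shares are per window, while a member counted when any of its windows held a match. A match is a run of letters and was not examined for binding. The third member with a match, Ddx49, was higher in Nat10 cKO.

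**Figure D2:**
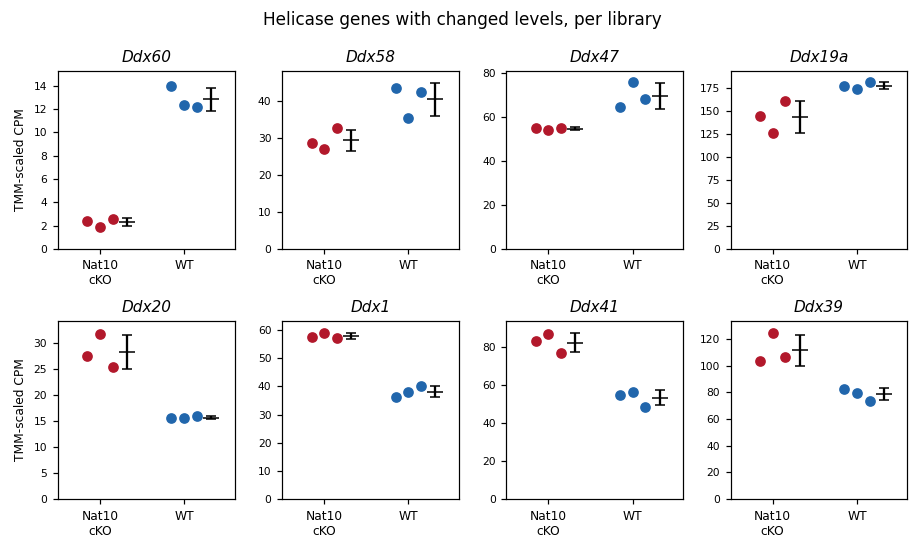
Level of 8 called helicase genes in each library, in CPM with TMM scaling, with Nat10 cKO on the left and WT on the right of each panel; points are single libraries of 10 oocytes and the bars give the mean and SD of 3 libraries. In every panel the 3 Nat10 cKO points and the 3 WT points do not overlap, with Ddx60 at 1.91 to 2.60 CPM in Nat10 cKO and 12.2 to 14.0 CPM in WT.

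The plot of called members sets the 4 clearest falls beside 4 of the rises, and shows that the spread within a group was small beside the gap in Ddx60 and Ddx20.

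Most helicases of mRNA storage and translation did not pass the test. Of 6 tested members, 1 rose and 1 fell (16.7% each, near the 17.4% and 17.6% of all tested genes), and 4 did not pass. Ddx6 (chr9:44604892-44640731, plus strand), the repressor of translation found in P-bodies and in stored oocyte mRNA particles, had 10.1, 10.1 and 10.7 CPM in Nat10 cKO, against 6.67, 11.7 and 10.4 CPM in WT. The Nat10 cKO libraries lay inside the WT range, and the difference was 0.13 (SE 0.176, adjusted p = 0.615). Ddx3x (chrX:13280970-13294052, plus strand), which helps ribosomes start on structured leaders, was the most abundant member. It had 629, 565 and 649 CPM in Nat10 cKO, against 628, 609 and 638 CPM in WT. The groups overlapped, with a difference of -0.03 (SE 0.0825, adjusted p = 0.827).

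Ddx1 (chr12:13216973-13249213, minus strand), a part of the tRNA ligase complex that also travels in RNA granules, was the member of this group that rose. Its level was 57.5, 59.1 and 57.1 CPM in Nat10 cKO, against 36.4, 38.0 and 40.1 CPM in WT. All Nat10 cKO libraries were above all WT libraries, and the rise was 0.59 (SE 0.0955, adjusted p = 0.00057). Dhx29, which helps ribosomes scan structured leaders, had 64.1, 55.3 and 69.3 CPM in Nat10 cKO, against 73.6, 80.1 and 77.3 CPM in WT. The groups did not overlap, and Dhx29 fell by 0.29 (SE 0.103, adjusted p = 0.04), the call nearest to the threshold. It was lost without Nat10 cKO replicate 1 (0.109) or 2 (0.178), and without WT replicate 1 (0.0628), 2 (0.0925) or 3 (0.123). Dhx9, a nuclear helicase with roles in transcription and translation, had a difference of 0.22 (adjusted p = 0.297).

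Dhx36 (chr3:62468013-62507004, minus strand), which unwinds G-quadruplexes in RNA and DNA, was singled out after its values were seen. It had 50.01, 48.3 and 48.4 CPM in Nat10 cKO, against 419, 99.6 and 56.2 CPM in WT. The 3 Nat10 cKO libraries were close together and below all WT libraries, while the WT libraries spread over more than the difference between the groups. The level in WT replicate 1 rested on 13545 reads of the gene. The difference was -1.43 with an SE of 0.819 and did not pass (adjusted p = 0.256). Without WT replicate 1 it was -0.60 and passed (adjusted p = 0.0266), and without WT replicate 3 it was -2.04 and passed (adjusted p = 0.0206). Dhx36 decided whether the summed helicase level overlapped between the groups. Over all members the sums were 3373, 3321 and 3447 CPM in Nat10 cKO, against 3448, 3281 and 3105 CPM in WT, which overlapped. Without Dhx36 they were 3323, 3273 and 3398 CPM in Nat10 cKO, against 3029, 3182 and 3048 CPM in WT, which did not.

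**Figure D3:**
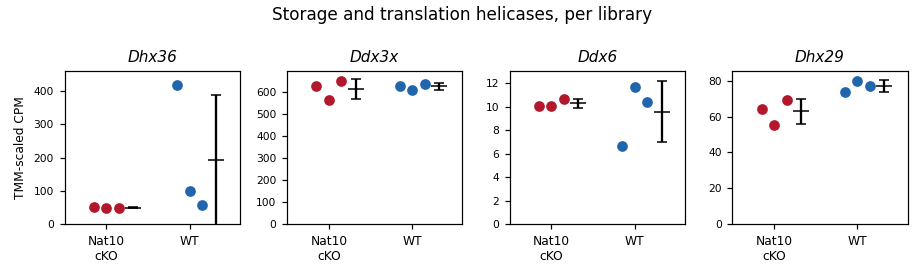
Level of Dhx36, Ddx3x, Ddx6 and Dhx29 in each library, in CPM with TMM scaling, with Nat10 cKO left of WT; points are libraries and bars give the mean and SD of 3 libraries, with the lower bar of Dhx36 in WT cut at 0. WT replicate 1 stands at 419 CPM for Dhx36, while Ddx3x and Ddx6 overlap between the groups.

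In the plot of the translation members, WT replicate 1 is the highest library for Dhx36 and the lowest for Ddx6.

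Of the 5 members that act on the small ribosomal subunit, 2 rose (40.0%) and 1 fell (20.0%), beside 17.4% and 17.6% of all tested genes. Ddx52 rose by 0.39 (SE 0.101, adjusted p = 0.00915), with 49.1, 52.8 and 46.3 CPM in Nat10 cKO, against 36.6, 39.5 and 36.0 CPM in WT. Ddx49 rose by 0.36 (SE 0.113, adjusted p = 0.0253), with 28.5, 27.9 and 29.6 CPM in Nat10 cKO, against 23.8, 22.7 and 20.1 CPM in WT. Neither gene overlapped between the groups. The Ddx49 call was lost without WT replicate 3 (adjusted p = 0.124), and also without replicate 1 (0.0832) or 3 (0.052) of Nat10 cKO. Ddx47 (chr6:135011612-135023776, plus strand), whose yeast counterpart acts in early rRNA processing, went the other way. It had 55.2, 54.2 and 54.9 CPM in Nat10 cKO, against 64.4, 76.2 and 68.1 CPM in WT, and fell by 0.34 (SE 0.0966, adjusted p = 0.0163). The Nat10 cKO libraries were nearly equal and below all WT libraries. The call was lost without Nat10 cKO replicate 1 (adjusted p = 0.0704), WT replicate 2 (0.0512) or WT replicate 3 (0.0568). Ddx10 and Dhx37 had differences of 0.16 and -0.11 and did not pass.

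The 11 members of the large subunit and nucleolar group gave 5 rises (45.5%, beside 17.4% of all tested genes) and no fall (beside 17.6%). Dhx33, a nucleolar helicase tied to rRNA synthesis, had 23.8, 29.8 and 22.5 CPM in Nat10 cKO, against 12.7, 17.7 and 15.8 CPM in WT. It rose by 0.69 (SE 0.147, adjusted p = 0.00323). Ddx21, which acts in rRNA transcription and processing, had 25.8, 26.6 and 26.9 CPM in Nat10 cKO, against 16.8, 19.8 and 17.1 CPM in WT. It rose by 0.54 (SE 0.116, adjusted p = 0.00332). In both genes every Nat10 cKO library was above every WT library. Ddx54, Ddx55 and Ddx56, assembly factors of the large subunit, rose by 0.65, 0.47 and 0.35 (adjusted p = 0.0164, 0.0051 and 0.0144). Ddx54 was low, at 2.21, 2.46 and 2.24 CPM in Nat10 cKO, against 0.556, 1.49 and 1.41 CPM in WT, and its call was lost without WT replicate 1 (adjusted p = 0.0671). The call of Ddx56 was lost without WT replicate 3 (adjusted p = 0.0771).

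The members of this group with the most reads did not pass. Ddx18 had 146, 148 and 131 CPM in Nat10 cKO, against 148, 132 and 138 CPM in WT, a difference of 0.02 (adjusted p = 0.868). Ddx24 had 136, 128 and 149 CPM in Nat10 cKO, against 126, 133 and 121 CPM in WT, a difference of 0.12 (adjusted p = 0.341). Both overlapped between the groups. Ddx27 missed the threshold at 0.34 (adjusted p = 0.0613), and it passed without Nat10 cKO replicate 2 or WT replicate 2 (adjusted p = 0.027 and 0.0345). Ddx31, Ddx50 and Ddx51 lay between -0.16 and 0.14.

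Among the 11 splicing helicases, 2 rose (18.2%, about the 17.4% of all tested genes), none fell and 9 did not pass. Ddx41 (chr13:55530410-55536658, minus strand), a spliceosomal helicase also studied as a DNA sensor, had 83.1, 86.6 and 76.8 CPM in Nat10 cKO, against 54.7, 56.2 and 48.6 CPM in WT. The groups were well apart, and Ddx41 rose by 0.62 (SE 0.0981, adjusted p = 0.000498). Ddx5, a helicase with roles in splicing, transcription and microRNA processing, had a higher mean CPM in both groups than any member but Ddx3x. It had 352, 374 and 295 CPM in Nat10 cKO, against 252, 286 and 279 CPM in WT, with Nat10 cKO replicate 3 only just above the WT range. Ddx5 rose by 0.32 (SE 0.0994, adjusted p = 0.0253). This call was lost without WT replicate 1 (adjusted p = 0.0979) or 3 (0.0639), or without Nat10 cKO replicate 1 (0.0957) or 2 (0.102). The helicases that drive the steps of the spliceosome cycle, Ddx23, Ddx46, Dhx8, Dhx15, Dhx16 and Dhx38, had differences from -0.20 to 0.24 and did not pass, and neither did Ddx17, Ddx42 and Dhx35.

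Of 5 export helicases, 3 rose (60.0%) and 1 fell (20.0%), beside 17.4% and 17.6% of all tested genes. Ddx39 (chr8:83715177-83726892, plus strand) and its close relative Ddx39b, the helicase of the TREX complex that loads export factors onto mRNA, both rose. Ddx39 had 104, 125 and 106 CPM in Nat10 cKO, against 82.6, 79.8 and 73.9 CPM in WT, a rise of 0.49 (SE 0.0986, adjusted p = 0.00215). Ddx39b had 133, 141 and 129 CPM in Nat10 cKO, against 102, 107 and 97.8 CPM in WT, a rise of 0.39 (SE 0.0872, adjusted p = 0.0044). The groups were apart in both genes. Ddx19a (chr8:110974996-110997800, minus strand), which strips export factors at the cytoplasmic face of the pore, had 144, 125 and 160.5 CPM in Nat10 cKO, against 177, 173 and 181 CPM in WT. It fell by 0.31 (SE 0.0982, adjusted p = 0.0252), with Nat10 cKO replicate 3 closest to WT. The call was lost without WT replicate 1 (adjusted p = 0.0639) or 3 (0.1), or without Nat10 cKO replicate 1 (0.0852) or 2 (0.125). Its neighbour Ddx19b, of the same role, had a difference of -0.07 (adjusted p = 0.701).

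Ddx25, best known as a helicase of testicular germ cells, had 88.1, 85.5 and 74.9 CPM in Nat10 cKO, against 61.5, 66.7 and 69.5 CPM in WT. The groups did not overlap, and Ddx25 rose by 0.32 (SE 0.0987, adjusted p = 0.0216). Without Nat10 cKO replicate 1 (adjusted p = 0.109), Nat10 cKO replicate 2 (0.0621) or WT replicate 1 (0.0878) the call was lost.

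The mitochondrial helicase Dhx30, found in the RNA granules where mitochondrial ribosomes are assembled, rose by 0.47 (SE 0.117, adjusted p = 0.00728). Its level was 46.2, 48.6 and 50.6 CPM in Nat10 cKO, against 32.4, 41.0 and 31.1 CPM in WT. Ddx28, of the same granules, overlapped at 0.01 (adjusted p = 0.956). Ddx11, a DNA helicase of sister chromatid cohesion, overlapped as well, at -0.11 (adjusted p = 0.449).

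The largest rise among the members on the log2(CPM + 1) scale was that of Ddx20 (chr3:105678270-105687574, minus strand), a subunit of the SMN complex that assembles spliceosomal snRNPs. Ddx20 had 27.5, 31.7 and 25.4 CPM in Nat10 cKO, against 15.51, 15.47 and 15.96 CPM in WT. The WT libraries were nearly equal and all lower, and the Nat10 cKO mean was 1.80-fold of the WT mean. The rise was 0.81 on that scale (SE 0.121, adjusted p = 0.000347). Ddx43 (chr9:78395777-78423587, plus strand), a helicase of germ cells, was far less abundant, at 0.855, 0.756 and 0.774 CPM in Nat10 cKO, against 0.185, 0.144 and 0.186 CPM in WT. In reads these were 64, 36 and 56 in Nat10 cKO, against 6, 5 and 12 in WT. The WT libraries alone would not have met the filter on low counts, so Ddx43 was tested only because Nat10 cKO was higher. Its groups were apart by 4.63-fold in means. The rise of 0.62 (SE 0.109, adjusted p = 0.000992) is on the log2(CPM + 1) scale, and edgeR gave 2.19. By the ratio of group means, Ddx43 and Ddx54 (1.99-fold, both with few reads) were above Ddx20.

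Of the other members in this mixed group, Ddx59 and Dhx40 rose by 0.46 and 0.38 (adjusted p = 0.00638 and 0.00748). Dhx57 had 61.6, 61.6 and 74.6 CPM in Nat10 cKO, against 90.4, 83.5 and 76.3 CPM in WT, and fell by 0.34 (SE 0.107, adjusted p = 0.0254). Nat10 cKO replicate 3 and WT replicate 3 nearly met. The Dhx57 call was lost without Nat10 cKO replicate 1 (adjusted p = 0.132) or 2 (0.0903), or without WT replicate 1 (0.107). Dhx32 did not overlap between the groups but did not pass (0.21, adjusted p = 0.094). Dhx34 overlapped at 0.26 (adjusted p = 0.284), and without WT replicate 2 it passed at 0.46 (adjusted p = 0.0387).

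Levels per length of exon set the members in order within each group. Ddx3x led with 116 ± 8.36 CPM per kb in Nat10 cKO and 118 ± 2.78 CPM per kb in WT (SD, n = 3 each). In Nat10 cKO the next were Ddx5 at 58.9 ± 7.01, Ddx18 at 57.1 ± 3.68, Ddx19a at 48.4 ± 5.95 and Ddx56 at 48.3 ± 4.64 CPM per kb. In WT the next were Ddx19a at 59.9 ± 1.36, Ddx18 at 56.1 ± 3.13, Ddx5 at 47.2 ± 3.06 and Ddx28 at 38.9 ± 3.32 CPM per kb. The lead of Ddx3x was larger than the spread in both groups. Below it, neighbours in this order overlapped within 1 SD in Nat10 cKO, as did Ddx19a and Ddx18 in WT. Ddx6 was low on this scale, at 1.28 ± 0.0442 CPM per kb in Nat10 cKO and 1.19 ± 0.324 CPM per kb in WT, in place 44 and 45 of the members. Ddx60 was in place 50 in Nat10 cKO, at 0.264 ± 0.0404 CPM per kb, and in place 44 in WT, at 1.48 ± 0.113 CPM per kb. The mean of Dhx36 put it in place 32 in Nat10 cKO and 9 in WT, with a WT SD larger than its mean.

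**Figure D4:**
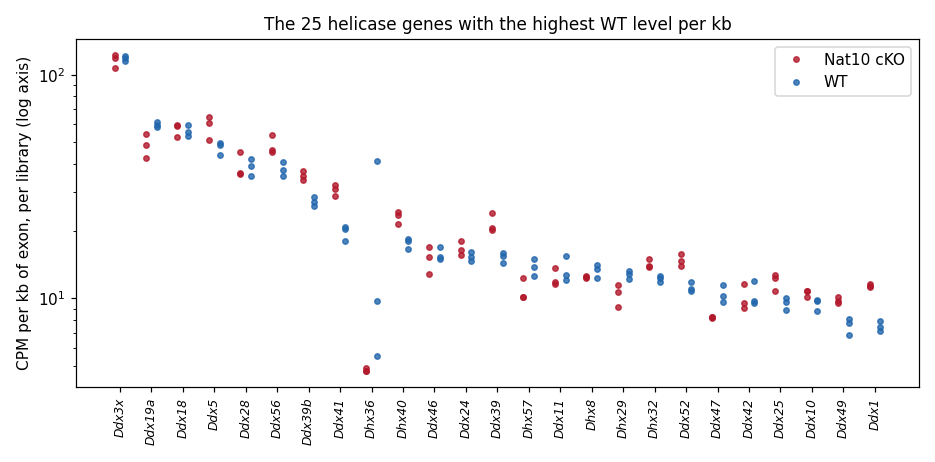
Level of the 25 helicase genes with the highest WT level per kilobase of merged exon (CPM per kb, log axis), with Nat10 cKO and WT side by side; dots are single libraries, 3 per group. Ddx3x leads in both groups at 116 and 118 CPM per kb, and the WT dots of Dhx36 are spread farther than those of any other gene shown.

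In the plot of levels per kb, the groups lie close together for most of the genes shown, while the WT libraries of Dhx36 are spread widely.

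Genes that work with these helicases were counted in 5 lists, beside the same 17.4% of genes higher and 17.6% lower over all tested genes. Of 17 partners of DDX6 in stored mRNA particles, 3 rose and 6 fell, with a median difference of -0.17. The 6 were Lsm14a, Lsm14b, Dcp1a, Dcp2, Ybx2 and Zar1. Zar1, an oocyte protein that binds maternal mRNA, had 745, 704 and 745 CPM in Nat10 cKO, against 1220.3, 1328 and 948 CPM in WT, and fell by 0.66 (SE 0.109, adjusted p = 0.000667). Lsm14b, another binding protein of stored oocyte mRNA, had 203, 146 and 252 CPM in Nat10 cKO, against 291, 341 and 350 CPM in WT, and fell by 0.73 (SE 0.155, adjusted p = 0.00325). Both were lower in every Nat10 cKO library. Neither was called with deposited scaling, where Zar1 differed by -0.30 (adjusted p = 0.704) and Lsm14b by -0.37 (adjusted p = 0.623). Edc3, an enhancer of decapping, was the opposite case and rose by 1.11 (SE 0.182, adjusted p = 0.000612), with low levels of 3.15, 4.08 and 2.71 CPM in Nat10 cKO, against 0.68, 1.44 and 0.901 CPM in WT.

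Of 20 G-patch proteins, cofactors that switch on DEAH helicases, 5 rose and 1 fell, with a median difference of 0.01. Gpkow, whose yeast counterpart acts with the spliceosomal helicase matching Dhx16, had 18.0, 22.7 and 13.5 CPM in Nat10 cKO, against 2.53, 6.20 and 5.47 CPM in WT, and rose by 1.77 (SE 0.244, adjusted p = 0.000219). Rbm5, a splicing regulator that binds Dhx15, had 36.0, 45.8 and 31.0 CPM in Nat10 cKO, against 7.20, 18.5 and 14.0 CPM in WT, and rose by 1.51 (SE 0.261, adjusted p = 0.00134). Cherp, another splicing cofactor, rose by 0.70 (SE 0.128, adjusted p = 0.00124), and was not called with deposited scaling (adjusted p = 0.0887) or on per-read shares (0.163). The groups did not overlap in these 3 genes, while Dhx15 and Dhx16 themselves differed by 0.05 and -0.04 and did not pass.

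Of 19 nucleolar partners, 4 rose and 1 fell, with a median of 0.10. The 3 with the smallest p were Nop14, a factor of the small subunit processome (0.69, adjusted p = 0.000322), Bop1, a factor of the large subunit (1.06, adjusted p = 0.000558), and Nop56, a core protein of box C/D particles (0.51, adjusted p = 0.00127). All 3 were higher in every Nat10 cKO library. Nop14 and Nop56 were not called with deposited scaling (adjusted p = 0.0897 and 0.185) or on per-read shares (0.157 and 0.363). Of 16 export partners of Ddx39 and Ddx19, 6 rose and none fell, with a median of 0.20. Nupl2, a pore protein (0.86, adjusted p = 0.00129), Thoc3, a TREX subunit (0.45, adjusted p = 0.0033), and Poldip3, a TREX-associated adaptor (0.39, adjusted p = 0.0137), did not overlap between the groups. Thoc3 and Poldip3 were not called with deposited scaling (adjusted p = 0.233 and 0.285) or on per-read shares (0.525 and 0.666), nor was Nupl2 on per-read shares (0.0556). Poldip3 missed the threshold without Nat10 cKO replicate 2 (adjusted p = 0.0535) or WT replicate 1 (0.0502) or 3 (0.0756).

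Of 18 tested helicases of the wider superfamily that carry other names, 4 rose and 5 fell, with a median of 0.09. Skiv2l, the helicase of the cytoplasmic exosome, had 36.8, 45.2 and 40.1 CPM in Nat10 cKO, against 17.8, 28.6 and 19.4 CPM in WT, and rose by 0.89 (SE 0.157, adjusted p = 0.000973). Helz, a zinc finger helicase, had 8.06, 7.35 and 8.77 CPM in Nat10 cKO, against 15.4, 18.3 and 14.0 CPM in WT, and fell by 0.90 (SE 0.142, adjusted p = 0.000497). Ascc3, which takes part in DNA repair and in the rescue of colliding ribosomes, fell by 0.58 (SE 0.11, adjusted p = 0.00152). These 3 genes did not overlap between the groups. With deposited scaling neither Helz (-0.56, adjusted p = 0.435) nor Ascc3 (-0.23, adjusted p = 0.780) was called. Eif4a1, the initiation factor helicase, rose by 0.36 (adjusted p = 0.00636), and was not called with deposited scaling (adjusted p = 0.289) or on per-read shares (0.643).

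The scale decided how many members were called. Deposited values are reads multiplied by 1 factor per library, and taken as they stand they raised the median difference of all tested genes to 0.24 and that of the members to 0.47. On that scale 47 of 51 members were above 0, against 33 with TMM scaling. With the same factors applied to per-read shares, the median of all genes was -0.15 and that of the members -0.05, with 23 members above 0. Ddx60 fell by 1.76 on the deposited scale (adjusted p = 0.00015) and by 2.25 on per-read shares (adjusted p = 1.72e-15). Ddx43 rose by 0.71 (adjusted p = 0.00165) and 0.55 (adjusted p = 0.00187) on the same scales. Ddx58 fell by 0.66 on per-read shares (adjusted p = 0.0405) and was not called on deposited values. In all 3 scalings the median of the members was above that of all genes, which were not matched to the members for level.

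**Figure D5:**
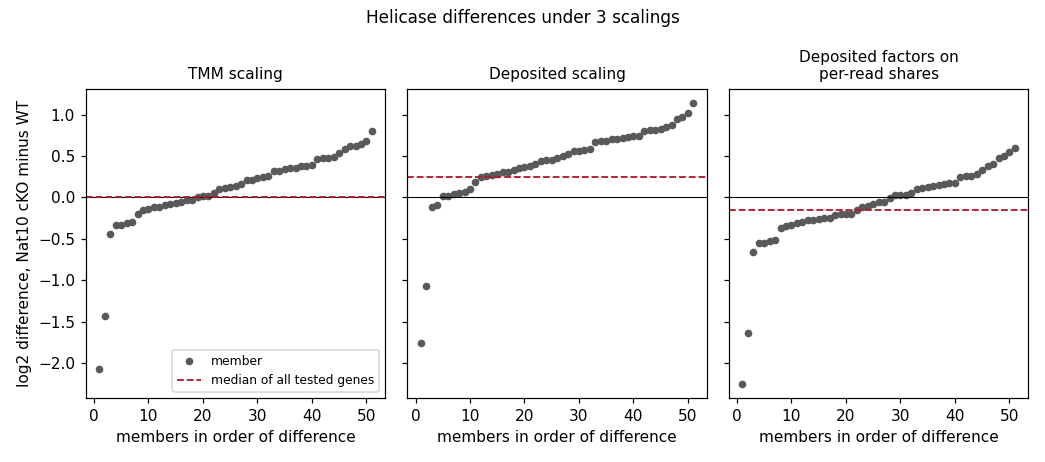
Differences of the 51 tested helicase genes, Nat10 cKO minus WT on the log2 scale, in order of size under 3 scalings; the dashed line is the median of all tested genes. With TMM scaling 33 members lie above 0, with deposited scaling 47 and with the factors on per-read shares 23.

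As the plot of scalings shows, the shape of the curve was alike and its height shifted with the median of all genes.

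Some members share sequence with other genes, which limits what their reads can show. Exons of 15 of the 53 members overlap those of another gene, 13 of them on the opposite strand, and the sources used here do not say whether reads were counted by strand. Among the called members, 8 overlap a gene on the opposite strand. Ddx39 overlaps Adgre5 by 895 bases, Ddx49 overlaps Homer3 by 874, Ddx54 overlaps Gm43579 by 869, Ddx41 overlaps Gm46416 by 467 and Ddx43 overlaps 4930542C12Rik by 350. Shorter overlaps were those of Dhx57 (255 bases), Ddx59 (153) and Dhx30 (123). Ddx5 and Ddx39b overlap small RNA genes on their own strand. In windows of 50 bases, 33.3% of the Ddx19a transcript also occurs in Ddx19b, so their split is uncertain. Ddx49 shares 35.1% of windows with Homer3 and Ddx54 shares 15.7% with other genes. The Ddx5 transcript shares 22.7% of windows with other genes, nearly all with Gm12183, and Ddx18 shares 62.7%, mostly with Gm16433. Ddx60, Ddx58, Ddx20, Ddx1 and Dhx36 share none.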

How the data were processed

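RNA from 6 pools of 10 oocytes was sequenced after Smart-seq2, 3 Nat10 cKO and 3 WT, each with 0.2 µl of a 1000-fold dilution of ERCC spike-in, per the series' design text. The submitters' processing notes name STAR 2.7.10a, Trim Galore 0.6.7, featureCounts and mm10, with settings not stated in the sources used here. The deposited column of WT replicate 1 holds whole read counts. The other 5 deposited columns hold a signal, reads times 1 factor per library (0.92, 0.908 and 0.932 in Nat10 cKO replicates 1 to 3, 1.38 and 0.945 in WT replicates 2 and 3). Division by the smallest value of a column made 100% of its values whole within 0.001. The sources used here do not say how the factors were computed, and none of the 55291 gene rows carried an ERCC name.

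Reads were scaled by TMM (edgeR 4.0.16), filtered by filterByExpr with a minimum count of 10, and tested two-sided as log2(CPM + 1) by limma 3.58.1 with trended, robust variances. The p-values were adjusted by Benjamini-Hochberg over the 18353 tested genes, and 0.05 was the threshold. Alternatives were edgeR, DESeq2 1.42.0 (both on the recovered reads), other scalings, pseudocounts of 0.1 and 5, no filter, a replicate block and leaving out each library. The deposited scaling divided the deposited values by 1 constant for all libraries. The filter, TMM scaling and limma test were tried on simulated counts, and the other steps were not. Software was R 4.3.3 and Python 3.11.15 with matplotlib 3.10.9, numpy 2.4.6 and pandas 2.3.3.

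Positions came from GENCODE M21 on GRCm38, the assembly of mm10, which matched 53292 of 55291 symbols and all 53 members. The members, roles and lists were chosen with earlier results of these data known. The rule for members given with values in every library was Ddx6, Ddx3x, the 8 with the smallest p in each direction among those called (6 were called lower) and the 5 of highest mean CPM, with 3 genes of smallest p per partner list. Others were chosen after their values were seen.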

Additional observations from a re-analysis of the deposited data

How the results depend on the processing

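With TMM scaling, 18 members were higher and 6 lower in Nat10 cKO, beside 17.4% and 17.6% of all tested genes. Pseudocounts of 0.1 and 5, median-of-ratios factors and edgeR gave the same 2 counts, DESeq2 gave 19 and 6, and library sizes alone gave 18 and 5. Of all 18353 tested genes, DESeq2 called 3284 higher and 3236 lower, and library sizes alone 3404 and 2967. With no filter on low counts, 16 members were higher and 2 lower, beside 2601 and 2323 of 32265 genes. The deposited scaling gave 1 higher and 1 lower, beside 6.58% and 1.39% of all tested genes. The deposited factors on per-read shares gave 1 and 2, beside 5.6% and 16.5%. Leaving out 1 library at a time gave 15 to 20 higher and 1 to 6 lower members. Over all genes, these fits called 2107 to 3431 higher and 2201 to 3334 lower, of 18488 to 19601 tested. Of the members, 13 of the 18 higher and 1 of the 6 lower, Ddx60, kept their call each time. Partner lists together held 22 higher and 13 lower genes. They held 8 and 0 with deposited scaling, 7 and 13 with per-read shares, and 15 to 27 higher and 8 to 16 lower with 1 library left out. The cause was not tested.

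Some signs turned between settings, and the reason was not tested. They included those of Ddx19a, Ddx47, Dhx29 and Dhx57, which were called lower with TMM scaling. With deposited scaling the sign turned positive for Ddx11 (0.24), Ddx19a (0.0476), Ddx19b (0.28), Ddx23 (0.0502), Ddx3x (0.33), Ddx42 (0.30), Ddx46 (0.28), Ddx47 (0.0194), Ddx51 (0.19), Dhx16 (0.30), Dhx29 (0.0624), Dhx37 (0.10), Dhx57 (0.0192) and Dhx8 (0.26). On per-read shares it turned negative for Ddx10 (-0.0547), Ddx17 (-0.19), Ddx18 (-0.19), Ddx24 (-0.10), Ddx28 (-0.21), Ddx31 (-0.052), Ddx50 (-0.12), Ddx6 (-0.0773), Dhx15 (-0.16) and Dhx32 (-0.0017). Library sizes alone turned Ddx3x (0.0035). With 1 library left out, the sign turned in some cases for Ddx11 (-0.19 to 0.002), Ddx17 (-0.10 to 0.13), Ddx18 (-0.0042 to 0.0788), Ddx28 (-0.0917 to 0.0758), Ddx3x (-0.0652 to 0.0378), Ddx42 (-0.15 to 0.0615), Ddx46 (-0.16 to 0.035), Ddx6 (-0.0898 to 0.28), Dhx15 (-0.0733 to 0.15), Dhx16 (-0.18 to 0.11) and Dhx37 (-0.28 to 0.16), none of which passed the threshold in any of these.

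Between the groups, deviations from the group means correlated at 0.0789, 0.0747 and -0.12 for libraries numbered 1, 2 and 3. For libraries of unlike number the values ran from -0.23 to 0.24. With 3 libraries per group, these correlations cannot show whether the pools were paired by design. With the replicate number as a block, 18 members were higher and 5 lower, beside 3070 and 3164 of 18353 tested genes. Dhx29 missed the threshold in that fit (adjusted p = 0.0576). With 3 pools per group, small differences cannot be told from the spread between pools, and low members such as Ddx43, Dhx58 and Ddx54 rest on few reads in the shallower WT libraries.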

Other observations

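The RNA sensors held the largest fall among the helicases, and genes of RIG-I signalling were counted as well, in a list of 13 chosen after these values were seen. Of 9 that could be tested, 4 were higher (44.4%) and 2 lower (22.2%) in Nat10 cKO, beside 17.4% and 17.6% of all tested genes. Mavs, the mitochondrial adaptor of RIG-I, had 73.6, 94.0 and 60.1 CPM in Nat10 cKO, against 40.8, 45.4 and 41.1 CPM in WT. This was a rise of 0.80 on the log2(CPM + 1) scale used for all differences here (limma adjusted p = 0.000802). Irf3, the transcription factor at the end of the pathway, had 25.2, 31.6 and 27.3 CPM in Nat10 cKO, against 13.4, 16.5 and 12.7 CPM in WT, a rise of 0.93 (adjusted p = 0.000281). Tbk1 and Rnf135 rose by 0.33 and 0.45 (adjusted p = 0.0404 and 0.0338). Zc3hav1, an antiviral zinc finger protein, fell by 1.91 (adjusted p = 4.77e-05), with 0.789, 0.441 and 1.63 CPM in Nat10 cKO, against 6.95, 5.91 and 5.61 CPM in WT. Ddx60, Ddx58 and Zc3hav1 were thus lower in all 3 Nat10 cKO libraries than in any WT library, and Mavs, Irf3, Tbk1 and Rnf135 were higher in all 3. Traf3 and Ikbke differed by -0.44 and 0.38 and did not pass. The sensor Ifih1 had reads in 1 library only, at 0.0535 CPM. These signs were the same with deposited scaling and on per-read shares, but several calls were lost. Mavs (adjusted p = 0.0577), Tbk1 (0.785) and Rnf135 (0.543) were not called on per-read shares. With deposited scaling, Tbk1 (adjusted p = 0.341), Rnf135 (0.242) and Ddx58 (0.916) were not called. The list was chosen from these data, so its counts carry no test.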
